A study of Mus musculus with 3 samples.

Results

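Methylated cytosine (5-methylcytosine, m5C) was read out by RNA bisulfite sequencing in the mRNAs of mouse ubiquitin-conjugating enzymes, ubiquitin ligases and ligase adaptors. The genes were taken by the start of their symbol: Ube2 (conjugating enzymes), Ube3 and Herc (HECT ligases), Rnf and Trim (RING ligases, Trim28 left out), Cul (cullin scaffolds), Fbxo and Fbxl (F-box adaptors), and Klhl and Kbtbd (BTB-Kelch adaptors). Of the 8353 genes with a called m5C site at any of 3 stages, 180 belonged to these 10 families, and they held 871 of the 40298 distinct sites. The symbol marks the family and is no measure of enzyme activity. Ube2 also took in Ube2cbp, named as a binding protein of Ube2c, and the pseudogene Ube2n-ps1.

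The stages were the germinal vesicle (GV) oocyte, the metaphase II (MII) oocyte and the 1-cell embryo, with 1 library of pooled cells each. All came from wild-type C57BL/6J females 7 to 8 weeks old. GV oocytes were taken from minced ovaries 48 h after 10 IU of PMSG. MII oocytes were taken 12 h after 5 IU of hCG in females primed with 10 IU of PMSG. The 1-cell embryos were taken 24 h after 5 IU of hCG from females given 5 IU of PMSG, per the label of that sample, and mated with C57BL/6J males, and about 200 embryos were pooled. The conversion protocol is worded differently for the oocyte and embryo libraries, so library preparation and stage cannot be told apart. The deposited 1-cell list is also not the one in the supplement of the study: coverage and level differed at most of the sites that could be compared, while those of the oocyte lists were the same, and the deposited list was used throughout. With 1 library per stage there was no replicate error. Every test compared the reads of 2 libraries and not the stages as such.

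Ubiquitin is passed from an activating enzyme to a conjugating enzyme and then, with a ligase, to the substrate. RING ligases bring the charged conjugating enzyme to the substrate, HECT ligases take up the ubiquitin themselves, and cullins carry exchangeable adaptors, F-box proteins on Cul1 and BTB proteins on Cul3. In oocytes this machinery times the meiotic divisions through the anaphase-promoting complex (APC/C), and after fertilisation it clears maternal proteins. The m5C of animal mRNA is known to be placed mainly by NSUN2, at cytosines followed by G-rich sequence (Type I sites), and by NSUN6, at the motif CUCCA (Type II sites).

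The 25-nt windows around the sites that the results turn on are printed 5′ to 3′ in RNA letters. They were read from the RefSeq copy of GRCm38.p6 and spliced along GENCODE M21 transcripts. The methylated C and the 4 bases after it stand in capitals. The first group holds the Fbxo43 site, the highest in mean level among sites called at every stage, sites that rose to near full methylation, and the deeply covered Trim61 and Trim27 sites.
Fbxo43 chr15:36164801: cuggucucuaguCGGGAgauucccc
Trim13 chr14:61605321: aaucaaaguaauCAAGGaaacuccu
Rnf5 chr17:34602176: acccggccagacCGGCAagaaugcc
Trim61 chr8:65014616: acaaccuuuguuCAGGGcucaaugg
Trim27 chr13:21180338: ggagcagcugugCGGGGacgggucu

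The second group holds 2 Type II sites, whose capitals read CUCCA, and the Trim35 and Rnf214 sites, which fell at a step. The latter 2 count as Type I only because they lack the Type II motif. The bases after their C are not G-rich. The last line is the window that Kbtbd6 and Kbtbd7 share letter for letter.
Rnf114 chr2:167515859: guggcaccacgcCUCCAcaguggug
Rnf185 chr11:3419867: auggacggccucCUCCAgcuguccc
Trim35 chr14:66307031: ccucaugaaacaCAAGAgccgaaaa
Rnf214 chr9:45900201: aguguaaguagcCAAAUgauaacca
Kbtbd6 and Kbtbd7: cgugucgcucagCGAGGccaacgug

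Each list held only called sites, with at least 20 reads, a level of at least 10.0% and at least 5 unconverted reads. A site that is not in a list may have been unmethylated, below these limits or not covered. Coverage, the number of reads over a site, differed between the lists: the median over all sites was 121 reads in GV oocytes, 107 in MII oocytes and 58 in 1-cell embryos. Of 15 oocyte marker genes, 14 had a site, with a median coverage of 5063, 3738 and 637.5 reads at the 3 stages. Of 12 granulosa and cumulus cell markers, Amh and Cyp19a1 had a site, both in the MII list alone and with at most 96 reads. None of 8 early zygotic transcripts had one.

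Sites were called in 140 member genes in GV oocytes, 151 in MII oocytes and 142 in 1-cell embryos. The number of sites was 350, 448 and 551, which made up 2.2%, 2.16% and 2.2% of each list. The families thus held a similar share of the list at each stage. At a minimum of 50 reads the embryo count fell to 346 sites, beside 275 in GV oocytes and 344 in MII oocytes, so at that depth the embryo count was close to the MII count and still above the GV count. Over all genes the counts at that depth were 12674, 15946 and 14749.

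The median level of member sites was 19.2% (95% interval 17.8 to 20.6) in GV oocytes, 20.5% (18.9 to 22.4) in MII oocytes and 25.3% (23.9 to 27.3) in 1-cell embryos. Over all genes it was 19.5%, 19.8% and 23.8%. At 50 reads or more the member medians were 17.9%, 19.2% and 19.2%, so the higher embryo median did not hold at that depth. Sites at a level of 50% or more numbered 35, 52 and 93, which was 10%, 11.6% and 16.9% of the member sites, beside 11%, 11.9% and 16.7% over all genes. The rate of unconverted cytosines per gene, a measure of incomplete conversion, was calculated back from the authors' binomial p-values and not counted directly. Its member median was 0.25%, 0.36% and 0.40%, beside 0.26%, 0.37% and 0.35% over all genes. Sites whose p-value was too small for this were left out.

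**Figure D1:**
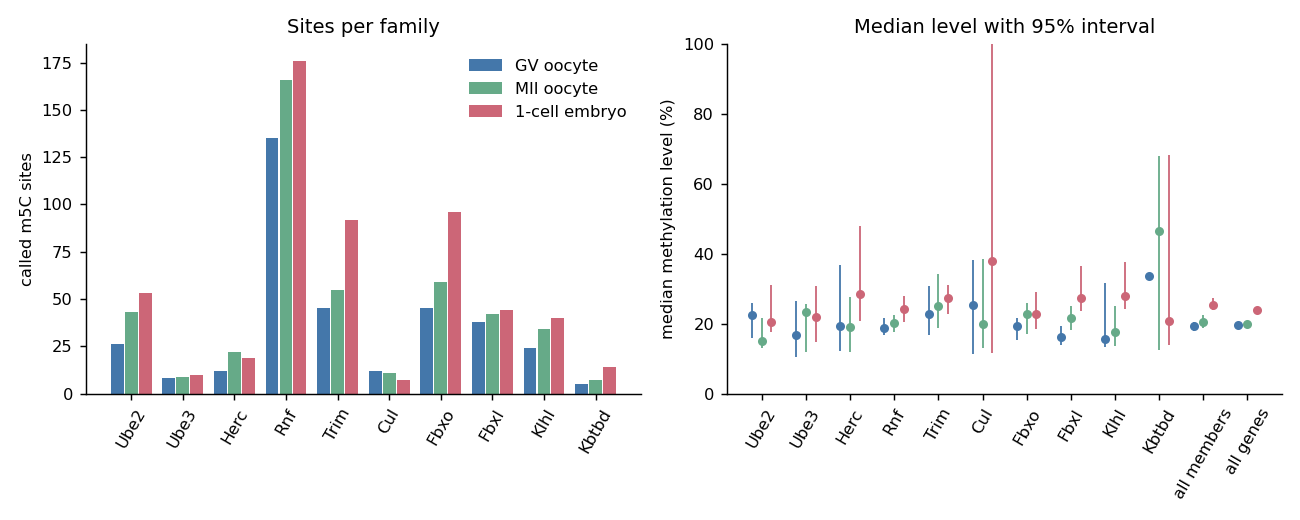
Left, the number of called m5C sites per family in each stage's list. Right, the median methylation level in percent with its 95% interval over sites (no bar where a family had too few sites for one), per family, for all members and for all genes; Rnf holds most sites, from 135 to 176 a stage, and most intervals of the family medians overlap.

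Rnf was the largest family, with 299 distinct sites in 57 genes, followed by Fbxo with 126 sites in 22 genes and Trim with 123 sites in 28 genes. Ube2 had 85 sites in 25 genes, Fbxl 77 in 12, Klhl 65 in 18, Herc 35 in 3, Cul 23 in 6, Ube3 21 in 3 and Kbtbd 17 in 6. Between GV oocytes and 1-cell embryos the list of Trim sites grew from 45 to 92, that of Fbxo from 45 to 96 and that of Ube2 from 26 to 53. Cul sites went from 12 to 7, and the sites of all genes from 15910 to 24996. No test was made of these counts, which move with coverage: the median coverage of Trim sites, for example, was 137 reads in GV oocytes and 55 in embryos.

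The sites of the oocyte lists largely overlapped. GV and MII lists shared 284 member sites, 81.1% of the GV sites and 63.4% of the MII sites, beside 81.4% and 62.6% over all genes. MII and embryo lists shared 187, 41.7% of the MII sites and 33.9% of the embryo sites, beside 38.7% and 32.1%. The members' overlap was thus near that of all genes. Of the embryo sites, 357 (64.8%) were in no oocyte list, beside 66.6% over all genes. By gene, 105 members had a site at every stage, 38 in an oocyte list but not in the embryo list, and 18 in the embryo list alone. These were 58.3%, 21.1% and 10% of the members, beside 53.9%, 23.3% and 13.6% of all genes.

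The embryo-only genes included Cul3, the scaffold of BTB ligases, and Ube2c, an APC/C partner. Cul3 had adjacent sites in its 5′ UTR at chr1:80340443 (28.4% of 95 reads, Wilson interval 20.3 to 38.2) and chr1:80340444 (17.7% of 96 reads, 11.4 to 26.5). Ube2c had 1 site in its coding sequence (CDS), at 12.6% of 103 reads (7.53 to 20.4). These intervals, like all intervals on levels here, cover counting error only, since reads without molecular identifiers are not independent molecules. Among the genes with oocyte sites only were Trim33, Trim37, Rnf31, Cul7 and Cul4a.

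Of the distinct member sites, 62.3% lay in the CDS, 17.3% in the 5′ UTR and 20.0% in the 3′ UTR, beside 70.1%, 10.8% and 17.0% over all genes. The Ube2 family stood apart in this respect. In Ube2, 36 of 85 sites (42.4%) were in the 5′ UTR, 24 in the CDS and 24 in the 3′ UTR. In the embryo list it was 30 of 53 Ube2 sites, beside 7 of 26 in GV oocytes and 13 of 43 in MII oocytes. The 5′ UTR carried 12.4% of the annotated cytosines of the Ube2 transcripts, counted on 1 transcript a gene, beside 7.23% over all genes. Per 1000 annotated cytosines there were 19.2 sites in Ube2 5′ UTRs, beside 8.30 over all genes, and 4.95 in Ube2 coding sequences, beside 6.64. Sites were placed on any transcript of a gene, while cytosines were counted on the transcript with the longest CDS alone. These densities can thus hold sites of other first exons without their cytosines. These shares are a description of the lists, and coverage along the transcripts was not tested.

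A few genes supplied most of the Ube2 5′ UTR sites. Ube2d3, a conjugating enzyme used by many RING ligases, had 8 of its 9 sites there, and its close relative Ube2d2a all 7. Ube2s, which extends ubiquitin chains for the APC/C, had all 4. Its site at chr7:4812443 was at 23.2% of 332 reads in GV oocytes, 23.5% of 234 in MII oocytes and 36.4% of 55 in embryos. The differences of the embryo from the oocytes were 13.2 and 12.9 percentage points, and neither passed (Fisher's exact test, adjusted p = 0.0638 and 0.101).

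Klhl and Trim also had many 5′ UTR sites, 27.7% and 23.6% of theirs. Klhl9, an adaptor of Cul3 known for its role in mitosis, had 10 of 11 sites there. Trim27 and Trim24, a nuclear cofactor, had 5 each. In Herc, by contrast, 34 of 35 sites lay in the CDS, where 93.0% of the annotated cytosines of these long transcripts also lie.

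**Figure D2:**
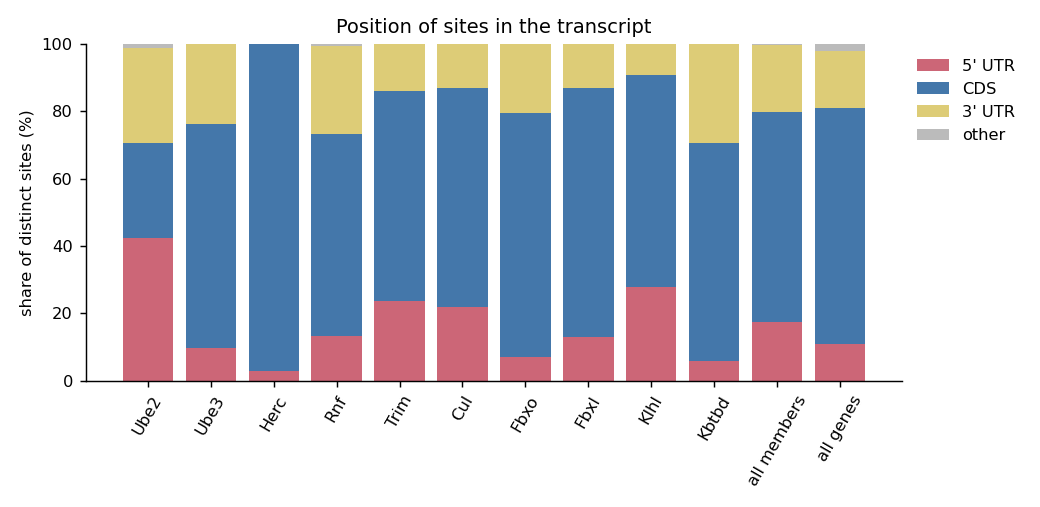
Share of distinct sites in percent by place in the transcript (5′ UTR, CDS, 3′ UTR, other exon or none), for each family, for all members and for all genes. The 5′ UTR share is 42.4% in Ube2 and 10.8% over all genes.

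Type II sites were a small class. The motif searched was CUCNA, with the site at its first C, on the transcript strand. It was held by 39 of the 871 member sites (4.48%), beside 4.15% of all sites. Of these, 25 were in Rnf genes (8.36% of Rnf sites), and none was in Ube2, Ube3 or Kbtbd. By stage, the Type II share of member sites was 7.14%, 5.36% and 3.09%, beside 5.91%, 5.03% and 3.44% over all genes. Every site without the motif was counted as Type I, whether or not G-rich sequence followed it. At Type I member sites, 2.05 of the 4 bases after the C were G on average (SD 0.979 over sites), beside 2.07 (SD 0.902) over all genes, a close pair of means. Codon positions 1, 2 and 3 held 206, 135 and 202 of the 543 CDS sites.

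At sites called in both libraries of a pair, methylated and unmethylated reads were compared by Fisher's exact test, adjusted over all shared sites of all genes. From GV to MII oocytes, 87 of 284 shared member sites were higher and 2 were lower, while 195 did not pass. That is 30.6% higher, read against 19.6% of the 12954 sites of all genes (0.965% were lower). The median difference was 6.01 percentage points (95% interval 4.88 to 7.12), beside 4.87 over all genes. The members were also covered more deeply here: their median coverage at shared sites was 180 and 156 reads, beside 151 and 126. With at least 50 reads in both libraries, 85 of 224 member sites were higher (37.9%), beside 24.5% of all sites. The part of coverage in the larger share was not tested. With every count divided by 5, as if 5 reads stood for 1 molecule, 2 member sites stayed higher (0.704%), beside 0.672% of all sites, so the larger share of the members was not seen at that setting.

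From MII oocytes to 1-cell embryos, 101 of 187 shared member sites were higher and 2 lower. The share of 54.0% was near the background of 51.3% (2.45% lower). The median difference was 12.8 points (9.57 to 14.7), beside 12.7. Median coverage at these member sites was 242 and 73 reads. Since a call needed at least 5 unconverted reads, a thinly covered embryo site could be listed only at a higher level. Falls at such sites could thus go unlisted. With at least 50 reads in both libraries, 73 of 132 sites were higher (55.3%, beside 52.5%), with a median difference of 10.4 points, beside 10.0. From GV oocytes to 1-cell embryos, 115 of 156 were higher and 1 lower, 73.7% beside a background of 66.1% (1.05% lower), with a median difference of 21.2 points (16.7 to 24.8) beside 19.2. With the counts divided by 5, 12 sites (6.42%, beside 7.2% of all sites) and 49 sites (31.4%, beside 21%) stayed higher at these comparisons. With at least 50 reads in both libraries, 87 of 111 sites were higher from GV oocytes to embryos (78.4%, beside 69.3%). The median difference was then 18.6 points, beside 16.3. The 3 comparisons share libraries, so they are not independent of each other.

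**Figure D3:**
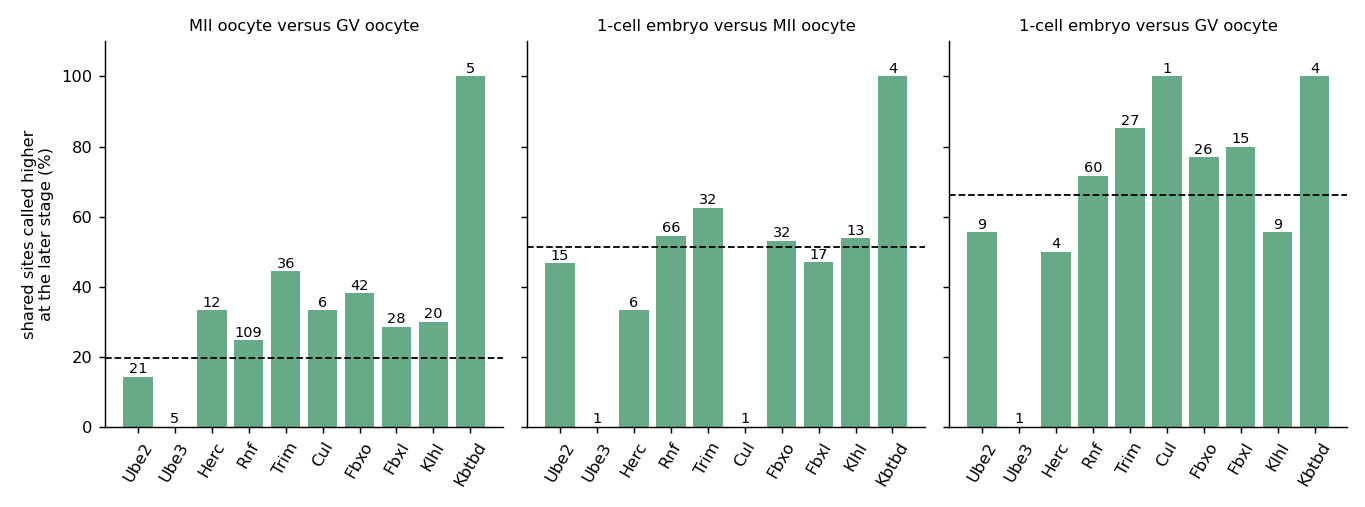
Percent of the shared sites of each family that were called higher at the later stage (Fisher's exact test, adjusted p under 0.05), for the 3 pairs of stages. The number over each bar is the count of shared sites, and the dashed line is the percentage over all genes (19.6, 51.3 and 66.1); Ube2 stands below the line in each panel and Trim above it.

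By family, the Trim sites were called higher most often among families with at least 20 shared sites: 16 of 36 from GV to MII oocytes, 20 of 32 from MII oocytes to embryos and 23 of 27 from GV oocytes to embryos. The Trim median differences were 7.10, 11.4 and 15.8 points, above the all-gene 4.87 at the first comparison and below the 12.7 and 19.2 at the others. The Trim sites were also more deeply covered, with medians of 350 and 179 reads in MII oocytes and embryos, beside 240 and 66 over all genes, and the part of coverage in the calls was not tested. Rnf had 27 of 109, 36 of 66 and 43 of 60. Fbxo had 16 of 42, 17 of 32 and 20 of 26, and Fbxl 8 of 28, 8 of 17 and 12 of 15. From GV to MII oocytes Ube2 had the lowest share among families with at least 20 shared sites, 3 of 21. Its median difference there was 1.03 points (-4.20 to 4.40). At the later comparisons Ube2 had 7 of 15 and 5 of 9, below that number of sites, and some other small families were as low or lower. Differences between families were not tested. Klhl had 6 of 20, 7 of 13 and 5 of 9. Herc had 4 of 12, 2 of 6 and 2 of 4, and Cul 2 of 6, 0 of 1 and 1 of 1. Ube3 had 0 of 5, 0 of 1 and 0 of 1.

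Kbtbd had 5 of 5, 4 of 4 and 4 of 4, but these sites are not separate measurements. Kbtbd6 and Kbtbd7 are neighbouring paralogues without introns. Their sites at chr14:79452466 and chr14:79427140 lie in windows of 61 nt that are identical, as do 2 further pairs of their sites. The Kbtbd6 site was at 32.2%, 46.4% and 68.2% (966, 933 and 355 reads) and the Kbtbd7 site at 33.6%, 47.7% and 66.6% (1285, 1140 and 404 reads). How the reads were shared out between the genes cannot be told from the lists. Kbtbd8, a Cul3 adaptor, has no such partner: its 3′ UTR site at chr6:95128556 was at 37.7% of 212 reads, 66% of 97 and 88% of 50, and rose at both steps (Fisher's exact test, adjusted p = 9.41e-05 and 0.012).

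Sites called at every stage showed the course of single positions. There were 149 of them among the members. Their median level was 19.9% in GV oocytes, 28.1% in MII oocytes and 45.1% in embryos, beside 21.6%, 28.1% and 45.5% at the 6145 such sites of all genes. The level rose at both steps, without regard to a test, at 118 of 149 sites (79.2%, Wilson interval 72.0 to 84.9), beside 67.4% over all genes. With at least 50 reads at every stage it was 87 of 107 (81.3%), beside 69.4%. The Wilson interval takes sites as independent, yet Rnf114 alone gave 9 of the 149 and Trim27 7. The difference from all genes was not tested. At 1 member site, the Type II site of Rnf185, the level fell at both steps.

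**Figure D4:**
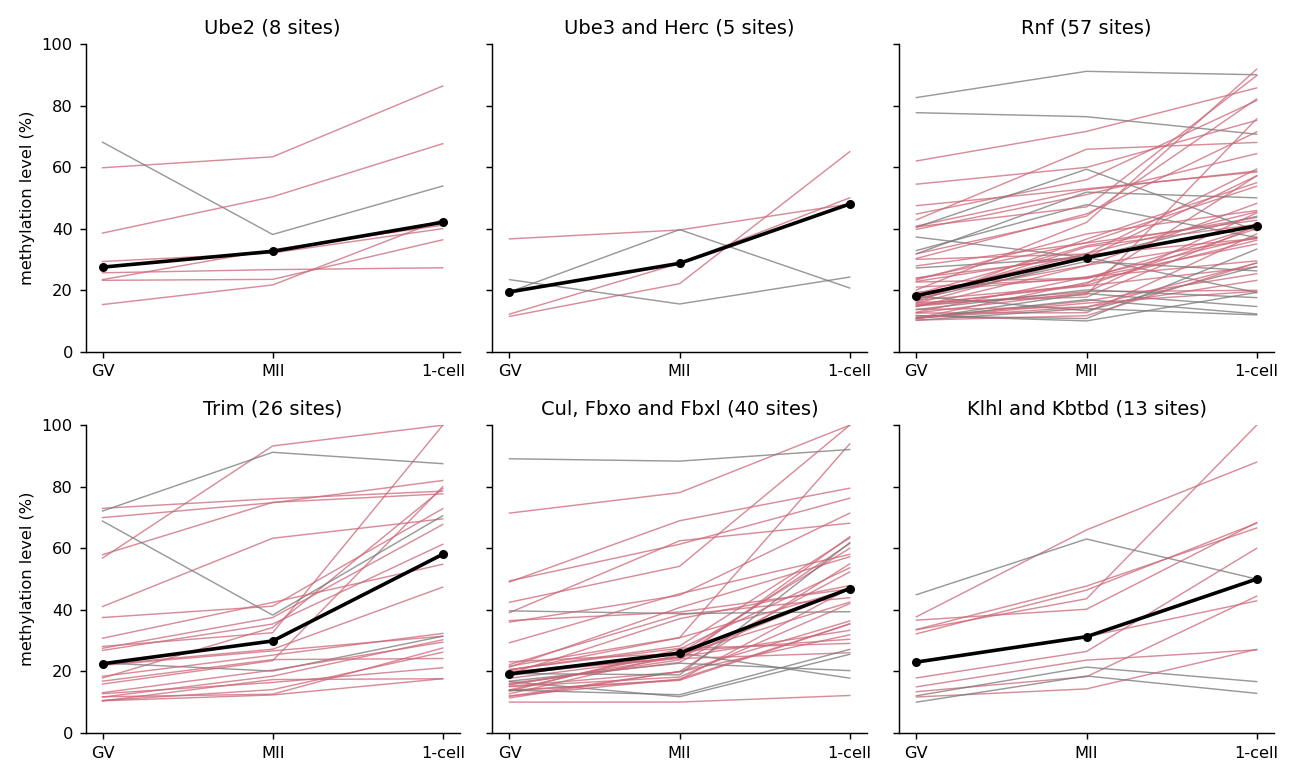
Methylation level in percent at the 149 member sites called at every stage, 1 line a site, in 6 groups of families. Lines that rise at both steps are red and the others grey, and the black line joins the medians; red lines make up 118 of the 149.

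Between either oocyte stage and the embryo, the median difference of member sites was smaller in the 5′ UTR than in the CDS and the 3′ UTR, while from GV to MII oocytes it was 6.88 points in the 5′ UTR and 5.81 in the CDS. From MII oocytes to embryos the median difference at member sites was 6.93 points in the 5′ UTR (38 sites, 16 higher), 13.7 in the CDS (62 higher of 108 sites) and 13.8 in the 3′ UTR (40 sites, 22 higher). Over all genes the values were 12.0 points (435 higher of 883 sites), 12.8 (3040 of 5842) and 13.2 (580 of 1153). From GV oocytes to embryos the members' 5′ UTR sites differed by 11.4 points and their CDS sites by 24.7, beside 17.7 and 19.4 over all genes. Type II member sites differed by 6.78 points from MII oocytes to embryos (10 sites, 4 higher and 1 lower), beside 12.9 at Type I sites and 7.26 at the Type II sites of all genes. Of the latter, 141 of 387 were higher and 18 lower. The differences between these classes were not tested.

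Among the conjugating enzymes, Ube2h, the partner of the CTLH ligase, had the site with the highest mean level among well covered Ube2 sites. In its 3′ UTR at chr6:30213732 it was at 59.8% of 1586 reads in GV oocytes, 63.3% of 1167 in MII oocytes and 86.3% of 183 in embryos. The embryo stood apart from both oocyte stages, which did not differ by the test. The second step was a rise of 23.0 points (95% interval 16.7 to 28.1, Fisher's exact test, adjusted p = 1.01e-09).

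The 5′ UTR sites of Ube2d2a on chromosome 18, where no sequence is printed, were the most deeply covered of the family. The site at 35771864 was at 15.3% of 1443 reads, 21.7% of 1600 and 43.0% of 579, and rose at both steps (Fisher's exact test, adjusted p = 0.000138 and 7.32e-20). A site 19 bases away, at 35771883, was at 23.4%, 33.1% and 41.1% and also rose at both (1.45e-07 and 0.00246 by the same test). Ube2a, a partner of RING ligases that act on histone H2B, had a 5′ UTR site at 12.9% of 224 reads in MII oocytes and 34.3% of 102 in embryos, a rise of 21.4 points (11.5 to 31.7, Fisher's exact test, adjusted p = 7.23e-05). Its call was lost when counts were divided by 5. By number of sites the family was led by Ube2o, a large enzyme that joins conjugation and ligation, with 5, 7 and 2 sites by stage, by Ube2d3 with 4, 2 and 6, and by Ube2z with 5, 7 and 3. The Ube2z 3′ UTR site at chr11:96049033 was at 38.5% of 179 reads, 50.3% of 145 and 67.6% of 71, and the second step passed (17.3 points, 3.20 to 29.9, Fisher's exact test, adjusted p = 0.038). The Ube2n site in its CDS had the same 61-nt window as Ube2n-ps1, so its reads could come from either locus.

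Among the HECT ligases, Herc2, a very large ligase known from DNA repair, had 25 distinct sites, the most of any member, with 8, 16 and 14 by stage. They were scattered over 24 CDS positions and 1 in the 5′ UTR. All 3 Herc2 sites called at every stage rose at both steps. At chr7:56204660, in exon 74 of 93, the level was 12.2% of 295 reads, 28.7% of 289 and, in the embryo, 28 of 56 reads. At chr7:56203815 it was 11.5% of 314, 22.1% of 276 and 65.0% of 20 reads.

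The coverage of Herc sites in the embryo was low: at sites shared by MII oocytes and embryos its median log2 ratio, embryo over MII, was -2.77, beside -1.65 over all genes and -1.40 over all members. Ube3b had 15 sites. Its most deeply covered site, at chr5:114406753, was at 23.4% of 111 reads, 15.5% of 129 and 24.2% of 33, with no difference past the test. Ube3a, the gene of Angelman syndrome, had 2 sites in all and Ube3c 4. Herc1 had 5 CDS sites, none of them in the embryo list, while Herc3 had 1, 1 and 5 by stage.

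Among the RING ligases of the Rnf family, Rnf5, a ligase of the endoplasmic reticulum membrane, had a CDS site at 40.6% of 175 reads, 47.1% of 170 and 89.7% of 68. The first step did not pass and the second was 42.6 points (30.6 to 51.7, Fisher's exact test, adjusted p = 2.95e-09). Its relative Rnf185 had a Type II CDS site that stayed high, at 77.7% of 860 reads, 76.4% of 546 and 70.7% of 191. The difference of embryo and GV oocyte was -6.99 points (-14.3 to -0.331), which did not pass after adjustment (Fisher's exact test, adjusted p = 0.0685). The 3′ UTR site of Rnf166 was high throughout too, at 82.6%, 91.1% and 90.0%.

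Among the chromatin ligases, Rnf2, which places ubiquitin on histone H2A, had a single CDS site, at 16.9% of 403 reads, 34.0% of 191 and 41.4% of 87. The first step passed (17.2 points, 9.68 to 24.9, Fisher's exact test, adjusted p = 9.89e-05) and the second did not. Rnf4, a ligase that recognises SUMO chains, had a 3′ UTR site at 30.3% of 297 reads, 44.8% of 172 and 71.4% of 70, which rose at both steps (Fisher's exact test, adjusted p = 0.0137 and 0.000652). Rnf20 and Rnf40 together form the ligase for histone H2B. The Rnf20 CDS site at chr4:49642092 was at 64.8% of 338 reads in GV oocytes and 72.4% of 319 in MII oocytes and was not called in embryos. The Rnf40 CDS site at chr7:127596667 went from 972 and 900 reads in the oocytes to 20 in the embryo, a log2 ratio of -3.84 relative to the median of all shared sites, with levels of 22.6%, 23.9% and 35%.

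Rnf168, a ligase of the DNA damage response, had a 5′ UTR site at 17.1% of 287 reads, 29.3% of 242 and 26.3% of 99, of which the first step passed (12.3 points, 5.07 to 19.4, Fisher's exact test, adjusted p = 0.00734). Its relative Rnf169 had 14 sites in all, with 6, 9 and 5 by stage. Rnf213, a very large ligase linked to moyamoya disease, had 15 sites, all in the CDS, with 7, 12 and 1 by stage. Rnf20 had 14 sites and gained in the other direction, with 2, 6 and 9. These counts follow calls and not levels, and none was tested.

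Rnf114, a ligase known from the turnover of maternal proteins, was the member with most reads over its sites in sum. It had 12 sites, 7 of them in the 3′ UTR, and 9 were called at every stage. At 8 of the 9 the level rose at both steps, and the embryo was called higher than the GV oocyte at the same number, 8. At chr2:167514913 the level was 23.7% of 973 reads, 35.5% of 764 and 53.8% of 119, and at chr2:167515113 it was 12.6% of 572, 19.3% of 483 and 45.1% of 184. The adjacent cytosines at 167515605 and 167515606 stood at 22.8%, 31.5% and 36.8% against 15.4%, 21.4% and 27.5%, and their Wilson intervals did not overlap at any stage.

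The ninth site, the Type II site printed earlier, moved the other way. It was at 27.2% of 1735 reads in GV oocytes, 30.7% of 1382 in MII oocytes and 19.2% of 785 in embryos. The fall at the second step was -11.4 points (-15.0 to -7.69, Fisher's exact test, adjusted p = 4.29e-08), and the difference of embryo and GV oocyte was -7.97 points (adjusted p = 3.78e-05 by the exact test). With counts divided by 5 neither passed (0.0903 and 0.165). The other member site that fell from MII oocytes to embryos was the Rnf214 CDS site, at 40.4% of 188 reads, 59.3% of 172 and 39.3% of 84: it rose by 18.9 points and fell by 20.0 points (Fisher's exact test, adjusted p = 0.00458 and 0.00787), so that the ends differed by -1.14 points (-13.2 to 11.5).

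**Figure D5:**
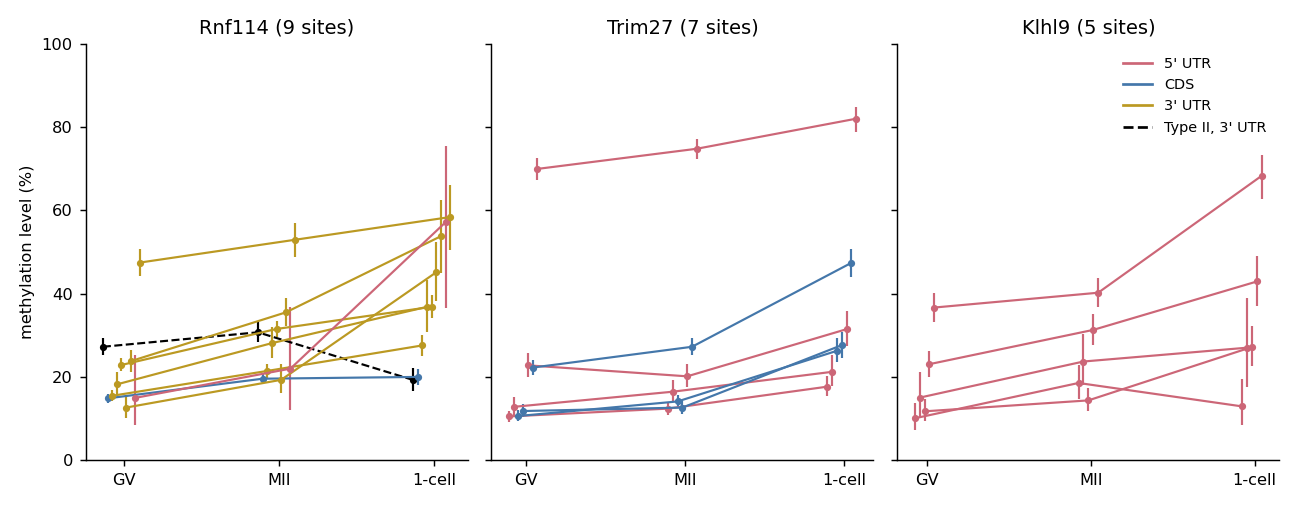
Methylation level in percent by stage at the sites of Rnf114 (9), Trim27 (7) and Klhl9 (5) that were called at every stage, with Wilson 95% intervals and coloured by place in the transcript. The dashed black line is the Type II site of Rnf114, the one site of that gene that ended lower in the embryo (19.2%) than in the GV oocyte (27.2%).

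In the Trim family, Trim13, a ligase anchored in the endoplasmic reticulum, had a CDS site at 56.8% of 132 reads (48.3 to 65.0), 93.3% of 89 (86.1 to 96.9) and 100% of 50 (92.9 to 100). It rose by 36.4 points from GV to MII oocytes (Fisher's exact test, adjusted p = 5.12e-08), and the embryo and the MII oocyte did not differ by the test. Trim11 and Trim60 also had high sites that rose at the first step. The Trim60 3′ UTR site was at 72.1% of 251 reads, 91.2% of 125 and 87.5% of 64. A large rise at the first step was also seen in Trim37, a ligase that restrains centrosome assembly, at 11.4% of 79 reads and 40.7% of 59 (29.3 points, 14.7 to 43.1, Fisher's exact test, adjusted p = 0.00121). This site and the Trim41 site, at 16.4% of 165 reads and 40.7% of 123, were not called in embryos.

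Trim35 held the larger of the 2 member sites that fell from GV to MII oocytes, the other being in Ube2r2. At chr14:66307031 in the CDS it was at 68.8% of 138 reads, 38.3% of 175 and 70.6% of 34, so the MII oocyte stood below both neighbours. The fall was -30.6 points (-40.5 to -19.6) and the later rise 32.3 points (14.0 to 46.6) by Fisher's exact test, adjusted p = 2.61e-06 and 0.00177.

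Trim61, Trim75 and Trim60 lie near each other on chromosome 8, all on the minus strand, and the Trim61 gene (65012987 to 65018523) lies wholly within the span of Trim60 (64999307 to 65018584). The sites given for Trim61 lie in a Trim61 exon and in an intron of Trim60. The Trim61 5′ UTR site at chr8:65014616 was the most deeply covered member site, at 18.4% of 5897 reads, 25.3% of 5644 and 32.3% of 2202. At this depth the small steps of 6.88 points (5.38 to 8.39) and 7.05 points (4.81 to 9.33) passed (Fisher's exact test, adjusted p = 7.71e-17 and 5.22e-09), and the first still did with counts divided by 5. Trim75 had CDS sites at 13.1%, 20.4% and 29.5% and at 11.6%, 18.4% and 30.3%, and each was called higher in every pair.

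Trim24, a cofactor of nuclear receptors, had 1, 2 and 11 sites by stage. Its 5′ UTR site at chr6:37870871 was at 17.9% of 112 reads, 34.3% of 143 and 79.4% of 34, and both steps passed (Fisher's exact test, adjusted p = 0.026 and 1.01e-05), the second by 45.1 points (27 to 57.7). Trim3 had CDS sites of unlike course. That at chr7:105619066 was high throughout, at 73.0%, 76.1% and 78.6%, with no difference past the test. That at chr7:105618407 was at 15.9% of 126 reads, 23.5% of 98 and 80% of 30.

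Trim27, a nuclear RING ligase, had 14 sites in the embryo and 7 at every stage. Its 5′ UTR site printed earlier was the highest, at 70.0% of 1162 reads, 74.8% of 1183 and 82.0% of 590. The embryo was called higher than the GV oocyte at all 7 sites. At chr13:21180720 in the CDS the level was 22.2% of 1910 reads, 27.2% of 1831 and 47.4% of 876, and the second step was 20.2 points (16.3 to 24.0, Fisher's exact test, adjusted p = 1.1e-22). The cytosine just before it was called in the embryo alone, at 17.4% of 876 reads.

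Some Trim values concern shared sequence. The Trim17 5′ UTR site at chr11:58955048 gained the most coverage relative to all sites from MII oocytes to embryos, by 2.05 on the log2 scale. Its 61-nt window is also found in histone H2A transcripts, Hist3h2a among them, so its 433, 375 and 494 reads may not belong to Trim17. The Type II sites of the paralogues Trim30a and Trim30d lie in windows with 56 of 61 bases the same, at 41.1% of 95 reads and 46.2% of 26 in GV oocytes. In all, 32 member sites in 14 genes had a window found in transcripts of another annotated gene, 11 of them in Rnf26, whose locus carries a second gene entry.

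Among the cullins, Cul1, the scaffold of F-box ligases, had the deepest sites. In its CDS at chr6:47484916 the level was 22.2% of 891 reads, 38.4% of 505 and 43.9% of 264. The first step was 16.2 points (11.2 to 21.2, Fisher's exact test, adjusted p = 1.22e-08) and the second 5.52 points (-1.75 to 12.8), which did not pass. A Type II site in its 5′ UTR was at 11.4% of 657 reads in GV oocytes and 25% of 400 in MII oocytes (Fisher's exact test, adjusted p = 7.95e-07). Cul5 had 8 sites on few reads, among them 5′ UTR sites at 100% of 21 and 23 reads in the embryo list alone, where the Wilson intervals reach down to 84.5% and 85.7%. Cul2 and Cul9 had no called site.

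Of the F-box adaptors, Fbxo43 (Emi2), the APC/C inhibitor that holds the egg in metaphase II, had the highest mean level among member sites called at every stage. In exon 1, in the 5′ UTR, it was at 89.1% of 165 reads (83.4 to 93.0), 88.3% of 197 (83.1 to 92.1) and 92.1% of 114 (85.7 to 95.8). The intervals overlapped and no pair differed by the test. The difference of embryo and GV oocyte was 3.01 points, with an interval of -4.50 to 9.78. Fbxo5 (Emi1), its relative, had no called site.

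Fbxo30, an adaptor known to target a mitotic motor, had a CDS site at 11.4% of 449 reads, 19.9% of 376 and 54.9% of 91, which rose at both steps (Fisher's exact test, adjusted p = 0.00761 and 1.49e-09). Fbxo40 showed how far sites of 1 transcript can differ. In its 3′ UTR the site at chr16:36964427 went from 71.4% and 78.1% of 105 reads each to 100% of 50. The site at chr16:36964084 stayed at 19.3% of 171 and 18.9% of 159 reads in the oocytes and stood at 61.8% of 55 in the embryo, a rise of 43.0 points (28.1 to 55.8, Fisher's exact test, adjusted p = 7.95e-08). Over its 4 embryo sites with 50 reads or more, the levels of Fbxo40 ran from 10.3% to 100%. The deepest F-box site was that of Fbxo34, at 12.0% of 2263 reads, 17.5% of 2012 and 35.5% of 609, whose window is also found in the pseudogene Gm7224.

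By number of sites, Fbxo42 led the F-box adaptors with 15 (2, 5 and 13 by stage), followed by Fbxl19 with 14 (6, 5 and 10), Fbxo10 with 13 (7, 12 and 5), Fbxo31 with 12 (3, 2 and 10), Fbxl12 with 12 (4, 4 and 7) and Fbxl18 with 9 (4, 5 and 2). The direction of the counts over the stages thus differed from gene to gene. Fbxl14, named here for its behaviour after its values were seen, held the other site whose first step passed with counts divided by 5. At chr6:119480748 in its CDS the level was 39.1% of 770 reads, 62.4% of 591 and 68.2% of 179, a first step of 23.3 points (18.1 to 28.4, Fisher's exact test, adjusted p = 1.94e-15).

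In Fbxl5, the iron-sensing adaptor, a CDS site was at 15.8% of 273 reads, 23.7% of 177 and 63.8% of 80. The second step was a rise of 40.0 points (27.1 to 51.2, Fisher's exact test, adjusted p = 1.44e-08). In Fbxl6, 2 CDS sites were at 20.6%, 28.2% and 63.3% and at 15.0%, 18.2% and 42.0%. Its coverage fell from 924 and 701 reads to 90 at the first and from 1025 and 909 to 69 at the second.

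Among the BTB-Kelch adaptors, Klhl9 had its 5′ UTR sites within a single exon. The site at chr4:88722198 was at 36.6% of 737 reads, 40.2% of 714 and 68.4% of 294. The first step did not pass and the second was 28.2 points (21.6 to 34.3, Fisher's exact test, adjusted p = 9.54e-15). At 4 of its 5 every-stage sites the level rose at both steps, and at the fifth, chr4:88722374, it was 10.0%, 18.5% and 12.9%. Klhl18 had 14 sites (2, 4 and 11 by stage) and Klhl25 7 (4, 6 and 1). The Klhl18 3′ UTR site rose from 49.3% of 134 reads to 73.5% of 98 in the oocytes (24.2 points, 11.6 to 35.6, Fisher's exact test, adjusted p = 0.00262).

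A hand-written list of 42 genes of these families with a known role in oocytes, the cell cycle or early embryos was looked up, and 34 had a site. No such share can be given for all genes. Those without were Rnf8, Fbxo5, Fbxo15, Cul2, Cul9, Klhl22, Ube2b and Ube2m. In bulk cells a level is a mean over all copies of a transcript, and lower coverage in the embryo can come from fewer transcripts per cell or from a shallower library, which cannot be told apart.

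The partners of these families were followed as a list of 71 symbols: activating enzymes, SCF and APC/C subunits, cullin regulators, adaptors of Cul2 and Cul4 and other HECT ligases. Of these symbols 51 had a site. Here too no such share can be given for all genes. The list counts some genes under both of their names: Dcaf1 and Vprbp, Eloc and Tceb1, and Elob and Tceb2. Dcaf1 and Eloc thus stand as symbols without a site, although Vprbp and Tceb1 had sites. From GV to MII oocytes, 17 of 79 shared sites were higher and 0 lower (Fisher's exact test), from MII oocytes to embryos 34 of 53 were higher and 1 lower, and from GV oocytes to embryos 31 of 39 were higher and 0 lower, beside the backgrounds of 19.6%, 51.3% and 66.1% given earlier. In the APC/C, 11 of 16 genes had sites, with 19, 23 and 53 by stage, beside 15910, 20694 and 24996 sites over all genes. Anapc1 and Anapc2 each went from few sites in oocytes (2 and 3 in GV) to 15 in the embryo list. Cdc20, an APC/C activator, had 1, 1 and 4 sites, and Fzr1, the other activator, 2, 3 and none. Of the other HECT ligases, 12 of 13 had sites, led by Huwe1 with 5, 8 and 18. Of the activating enzymes, Uba1 had 1, 3 and 7 sites.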

How the data were processed

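RNA bisulfite sequencing of 3 libraries, 1 per stage, was analysed from the site lists deposited by the authors. Per the submitters' processing notes, bcl2fastq 2.17, cutadapt 1.13, Trimmomatic 0.36, HISAT2 2.10, Bowtie2 2.2.9 and SAMtools were used, on GRCm38. The authors deposited, per called site, coverage as a read count, the methylation level as a fraction of unconverted reads, and a binomial p-value. That p-value served as their filter and, here, only for calculating back the rate of unconverted cytosines per gene. The labels name polyA RNA and the methods rRNA depletion. The lists hold exonic sites past limits on coverage, level, unconverted reads and conversion-resistant genes. No other value columns (0) were present.

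Unconverted reads were recovered as coverage times level (largest deviation from a whole number 2.9e-05). Shared sites were compared by two-sided Fisher's exact test with Benjamini-Hochberg adjustment over all shared sites of a pair, called at adjusted p under 0.05, after tests on simulated data. Levels have Wilson 95% intervals, differences Newcombe intervals, and medians order-statistic intervals. Intervals on medians and shares of sites take the sites as independent, although many lie in the same gene. Place in the transcript came from GENCODE M21 (178 of 180 symbols the same), sequence from RefSeq GRCm38.p6, and all 871 positions were C. Python 3.11.15, pandas 2.3.3, scipy 1.17.1 and pysam 0.24.0 were used. Members and gene lists were chosen with earlier results of these data known. Named are, per pair, the 5 largest called rises and falls with 50 reads or more at both stages, per family the 3 genes with most sites and the deepest site, the 10 highest sites called throughout, a hand-written list of genes with a known role, the 5 largest coverage gains and losses, and the genes with the widest spread of levels. Ube2r2, Fbxl14, Trim75, Trim30a and Trim30d, Rnf31, Ube2n and the genes of the 100% sites were chosen after their values were seen. Alternatives were a minimum of 50 reads, a minimum level of 20%, and counts divided by 5. Some results are not reported here.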

Additional observations from a re-analysis of the deposited data

How the results depend on the processing

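No paired analysis was possible because each stage had 1 library and no replicate. At a minimum level of 20% the member sites numbered 164 in GV oocytes, 233 in MII oocytes and 342 in embryos, with medians of 32.7%, 32.1% and 36.9%, and the shared sites called higher were 42 of 131 from GV to MII oocytes (median difference 8.19 points, 32.1% beside 24.3% over all genes), 59 of 113 from MII oocytes to embryos (1 lower, 52.2% beside 53.2%) and 52 of 73 from GV oocytes to embryos (71.2% beside 67.6%, 0 lower by Fisher's exact test, 1 at unadjusted p under 0.05). At a minimum of 50 reads the embryo list held 346 sites with a median of 19.2%, and 1 site was lower from GV to MII oocytes. With counts divided by 5, the calls were 2, 12 and 49 higher and 0, 0 and 0 lower (29, 38 and 74 higher and 1, 1 and 0 lower at unadjusted p under 0.05), and 13 of 19 named differences at single sites no longer passed. By construction these settings leave fewer sites or fewer reads. In the other 42 values recomputed for the counts, shares and medians the sign of the differences held. Their size and the order of the stages did not always hold. At a minimum of 50 reads, member genes went from 140 to 117 in GV oocytes, from 151 to 122 in MII oocytes and from 142 to 102 in embryos. The embryo count thus went from just above the GV count to below it. MII sites went from 448 to 344. Sites higher from MII oocytes to embryos went from 101 to 73. The alternative for sites called at every stage, at least 50 reads, was chosen after seeing the data. Depth limits the embryo most, with a median of 63 reads at member sites, and sites just over 20 reads carry wide intervals.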

Other observations

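Of the member sites, 12 in 10 genes stood at a level of 100%, all in the embryo list. They made up 2.18% of it, beside 2.2% over all genes, whose GV and MII lists held 2 and 8 such sites. Their coverage was low, from 21 to 50 reads, so the lower Wilson bounds ran from 84.5% to 92.9%. At 5 of them the same position had been called in both oocyte stages. These were the Trim13 and Fbxo40 sites, an Fbxo9 CDS site at 42.5% and 54.1%, a Klhl2 CDS site at 33.5% and 43.6%, and a Trim26 CDS site at 28.1% and 32.6%. The others, among them sites of Cul5, Fbxo31, Kbtbd11, Klhl26 and Trim71, the pluripotency-linked ligase Lin41, were in no oocyte list.

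Close pairs of sites were more frequent in the embryo list. Of the member sites, 5.14% in GV oocytes, 5.36% in MII oocytes and 10.3% in embryos lay within 10 nt of another called site, beside 6.37%, 7.31% and 9.65% over all genes. Runs of 4 G right after the C were present at 5.77% of Type I member sites, beside 4.34% over all genes.

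Coverage, taken relative to the median of all sites shared by MII oocytes and embryos, rose most among the other members at Trim15 (chr17:36862872, log2 2.02, 24 and 31 reads), Rnf41 (1.97, 41 and 51 reads) and Rnf220 (1.63, 171 and 168 reads). It fell most, after Rnf40, at an Fbxo18 CDS site (-2.29, 786 and 51 reads), and at a site of Fbxl20 it was -1.88 (232 and 20 reads). The Rnf220 5′ UTR site at chr4:117289286 stood at 10.8%, 15.8% and 19.6%.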
